A study of Mus musculus with 6 samples.

Results

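The genes described here are 8 genes of sterol and fatty acid synthesis, *Idi1*, *Hmgcs1*, *Sqle*, *Insig1*, *Fdps*, *Scd2*, *Fasn* and *Srebf2*, all 8 found by symbol among the 32285 genes of the deposited feature lists. They were followed in 5 classes of kidney leukocytes, dendritic cells, macrophages, monocytes, T cells and B cells, in 3 libraries from mice with acute kidney injury after rhabdomyolysis, the breakdown of skeletal muscle, and in 3 libraries from control mice. All mice were C57BL/6J of 8 weeks. Kidney tissue had been broken up with collagenase and DNase and cleared of red cells, and viable cells were sorted for CD45, which marks leukocytes, before 3′ single-cell RNA sequencing in droplets. The labels give neither the means of injury nor the time after it, and leave it unsaid whether each library is a different mouse. The p-values therefore reflect variation among libraries, part or all of which may be technical.

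Animal cells make cholesterol from acetyl-CoA through the mevalonate pathway. *Hmgcs1* encodes the synthase that makes HMG-CoA, and *Idi1* the isomerase that converts isopentenyl to dimethylallyl diphosphate. *Fdps* encodes the synthase that joins these units to farnesyl diphosphate, and *Sqle* squalene epoxidase, a later enzyme of sterol synthesis. *Fasn* encodes fatty acid synthase, which builds palmitate, and *Scd2* a stearoyl-CoA desaturase, which puts a double bond into saturated acyl chains. *Srebf2* encodes SREBP-2, the transcription factor that switches on the sterol genes when membrane cholesterol is low, and *Insig1* encodes the endoplasmic reticulum protein that retains the SREBP precursor when sterols are plentiful; *Insig1* is itself an SREBP target. In leukocytes the pathway is known for supplying membrane to dividing cells and for its link to interferon and inflammatory responses in macrophages.

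The libraries held 10816727 to 22656666 UMIs (unique molecular identifiers, counts of single captured RNA molecules) in genes. Of 1529, 2166 and 3703 called cells in the rhabdomyolysis libraries and 4038, 3488 and 3078 in the control libraries, 507, 624 and 2164 against 549, 623 and 795 had under 0.1% of their UMIs in *Malat1*, an abundant nuclear RNA, and were left out. The gates on marker UMIs then gave 20, 30 and 61 dendritic cells in rhabdomyolysis against 161, 153 and 104 in control libraries. They gave 444, 623 and 474 macrophages against 1565, 1318 and 921, and 174, 231 and 365 monocytes against 27, 24 and 10. They gave 75, 88 and 118 T cells against 615, 504 and 539, and 38, 84 and 89 B cells against 422, 244 and 233. UMIs were summed per class and library. A library entered the test of a class with at least 20 cells of it, so monocytes were compared between 3 rhabdomyolysis and 2 control libraries. Levels are given as CPM, UMIs of a gene per 1000000 UMIs of the class in a library after trimmed mean (TMM) scaling. Changes are log2 ratios of rhabdomyolysis over control from the edgeR quasi-likelihood test with their standard error (SE), p-values are Benjamini-Hochberg adjusted over all genes tested in the class, and a gene is called at an adjusted p under 0.05.

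The class labels were checked on marker genes that had no part in the gates. The check list for dendritic cells summed to 782 to 1850 CPM in the rhabdomyolysis dendritic cells and to 1613 to 1839 CPM in the control ones, with all 8 of its 8 genes detected in each library. The macrophage check list summed to 1183, 1648 and 602 CPM in the rhabdomyolysis dendritic cells, above the dendritic list in replicates 1 and 2, and to 1124, 773 and 715 CPM in the control ones, below it in all 3. The 3 macrophage gating genes likewise summed to 1115, 796 and 351 against 572, 436 and 333 CPM, above the dendritic gating genes in the same 2 rhabdomyolysis libraries and below them elsewhere. The dendritic cells were nevertheless not alike in the groups. The 5 gating genes *Flt3*, *Zbtb46*, *Xcr1*, *Clec9a* and *Cd209a* summed to 412 to 776 CPM in rhabdomyolysis and 1255 to 1560 CPM in control libraries, and the 8 monocyte gating genes to 1367 to 2210 against 720 to 905 CPM. Type 1 cells, with *Xcr1* or *Clec9a*, numbered 3, 4 and 14 of the dendritic cells in rhabdomyolysis libraries and 51, 38 and 29 in control libraries. Hemoglobin and *Alas2* RNA summed to 18321 CPM in the dendritic cells of rhabdomyolysis replicate 2, against at most 2.9 CPM in those of the other 5 libraries.

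Over the 5 classes, 33 of the 40 pairs of a member and a class had enough counts to be tested, 30 of the 33 changes were below zero, and 11 were called, all 11 of them falls. *Idi1* fell in dendritic cells, monocytes and T cells, *Fdps* in dendritic cells and monocytes, *Srebf2* in dendritic cells and macrophages, *Sqle* and *Scd2* in dendritic cells, and *Hmgcs1* and *Insig1* in macrophages. *Fasn* was not called in any class. The share of all tested genes called in either direction was 15.6% in dendritic cells, 43.2% in macrophages, 11.2% in monocytes, 10.7% in T cells and 4.86% in B cells. The share called lower was 7.22%, 21.6%, 4.9%, 4.18% and 2.57% in that order. The median change over all tested genes was -0.018, -0.044, 0.076, -0.0074 and 0.0056 in that order. The pairs share libraries and are not independent of each other.

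The sequences before the starts of the members are shown because these genes share a regulator, SREBP, which binds sterol response elements beside sites for general factors such as NF-Y at CCAAT. RefSeq promoters (GRCm38.p6) were held for 5 of the 8 members, and the 250 bases before the start are given for the 4 of these that were called in at least 1 class. Capitals mark TCACNCCA, a form of the sterol response element, with the C of its longer form TCACNCCAC where that follows, CCAAT, and CACGTG, the E-box, each searched on both strands, with ATTGG being CCAAT on the other strand. The windows are *Idi1* at chr13:8885356-8885605, *Hmgcs1* at chr13:119690101-119690350, *Insig1* at chr5:28071162-28071411 and *Srebf2* at chr15:82147019-82147268, all on the plus strand.
Idi1: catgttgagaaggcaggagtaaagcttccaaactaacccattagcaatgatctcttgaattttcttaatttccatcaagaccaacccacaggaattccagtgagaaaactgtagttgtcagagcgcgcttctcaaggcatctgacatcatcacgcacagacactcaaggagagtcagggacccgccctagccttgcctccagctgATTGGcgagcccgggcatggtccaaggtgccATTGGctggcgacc
Hmgcs1: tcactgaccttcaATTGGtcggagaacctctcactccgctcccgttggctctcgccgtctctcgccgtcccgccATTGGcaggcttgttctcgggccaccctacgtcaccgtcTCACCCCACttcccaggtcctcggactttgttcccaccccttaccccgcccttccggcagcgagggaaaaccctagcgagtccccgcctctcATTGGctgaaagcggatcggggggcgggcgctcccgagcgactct
Insig1: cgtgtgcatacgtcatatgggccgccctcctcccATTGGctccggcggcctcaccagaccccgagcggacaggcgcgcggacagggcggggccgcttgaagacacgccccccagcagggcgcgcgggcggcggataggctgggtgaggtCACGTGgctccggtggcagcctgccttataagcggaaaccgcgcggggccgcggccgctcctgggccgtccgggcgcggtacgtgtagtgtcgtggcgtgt
Srebf2: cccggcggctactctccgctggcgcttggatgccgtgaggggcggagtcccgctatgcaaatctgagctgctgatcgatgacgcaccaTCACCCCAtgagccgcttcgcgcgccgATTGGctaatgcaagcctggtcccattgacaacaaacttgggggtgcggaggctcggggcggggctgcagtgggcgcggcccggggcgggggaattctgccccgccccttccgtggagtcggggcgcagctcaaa

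TCACNCCA was found in *Hmgcs1*, 137 bases before the start, and in *Srebf2*, 162 bases before it, and in 3.67% of the 32851 windows of the same length. The longer TCACNCCAC, which contains it, was in *Hmgcs1* and in 1.05% of all windows. CCAAT was found in all 5 windows, *Fasn* included, and in 33.8% of all windows, and CACGTG in *Insig1*, 101 bases before the start, and in 6.02% of all windows. These matches are letters in a window and not measured binding.

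**Figure D1:**
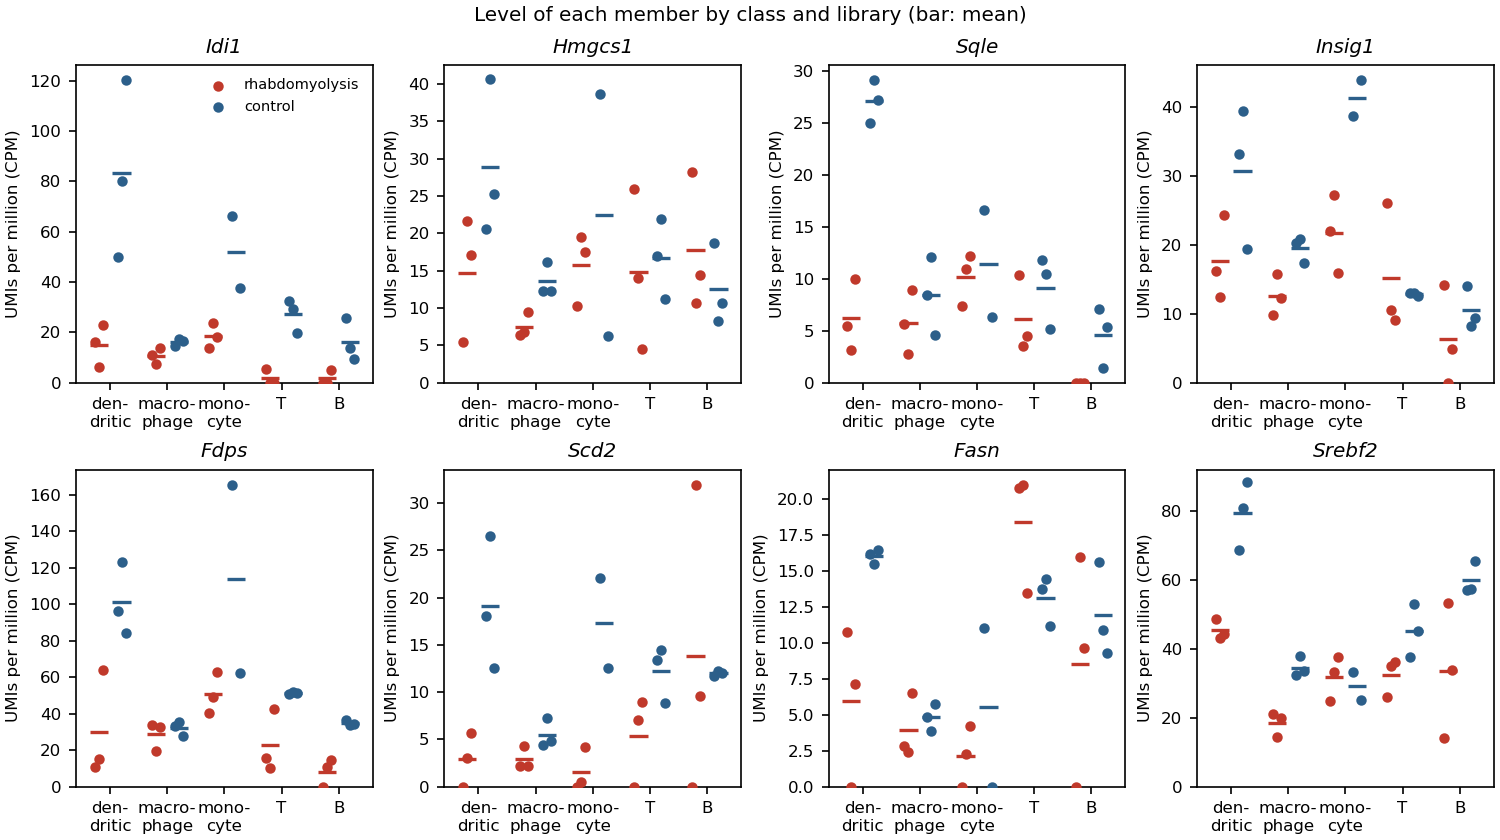
Level of each member in CPM (y axis, linear) by class (x axis), with 1 point per library, rhabdomyolysis in red left of control in blue, and a bar at the group mean. For *Sqle* in dendritic cells the 3 rhabdomyolysis libraries sit between 3.1 and 10.0 CPM and the 3 control libraries between 25.0 and 29.1 CPM.

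In dendritic cells 5 of the 8 members fell, where 7.22% of all 6388 genes tested were called lower. The median change of the 8 was -1.39 on the log2 scale, against -0.02 over all genes tested. For 6 of the 8 every rhabdomyolysis library lay below every control library, as for 17.7% of all genes tested. The members and the pathway lists were chosen with earlier results of these data known. Their counts beside the shares of all genes, here and in the other classes, are therefore a description. Leaving out 1 library gave 3 of 7 without control replicate 1, 2 of 7 without control replicate 2, 4 of 8 without control replicate 3, 3 of 8 without rhabdomyolysis replicate 1 or 3, and 5 of 8 without rhabdomyolysis replicate 2. *Idi1* stood at 16.2, 6.2 and 22.8 CPM in the rhabdomyolysis libraries and at 49.9, 80.1 and 120 CPM in the control libraries. Every rhabdomyolysis library lay below every control library, and the fall was 2.24 ± 0.44 on the log2 scale (adjusted p = 0.0036). *Sqle* stood at 5.4, 3.1 and 10.0 CPM against 25.0, 29.1 and 27.1 CPM. Its groups did not overlap, and the change was -1.86 ± 0.41 (adjusted p = 0.0071).

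*Fdps* in dendritic cells stood at 10.8, 15.4 and 64.2 CPM in rhabdomyolysis and at 96.1, 123 and 84.3 CPM in control libraries. Rhabdomyolysis replicate 3, with 61 of the 111 rhabdomyolysis dendritic cells, was far above the other two and still below every control library, and the change was -1.33 ± 0.35 (adjusted p = 0.020). *Scd2* had 0, 1 and 4 UMIs in rhabdomyolysis libraries, or 0, 3.1 and 5.7 CPM, against 18.1, 26.5 and 12.6 CPM. The groups did not overlap, and the change of -2.22 ± 0.59 (adjusted p = 0.021) rests on 5 UMIs against 83. *Srebf2* had the smallest standard error of the 8, at 48.6, 43.2 and 44.2 CPM against 68.6, 80.7 and 88.2 CPM. Its change was -0.81 ± 0.21 (adjusted p = 0.017).

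The other 3 members in dendritic cells did not pass. *Fasn* stood at 10.8, 0 and 7.1 CPM against 16.2, 15.5 and 16.5 CPM, with no overlap and a change of -1.45 ± 0.52 (adjusted p = 0.081). *Hmgcs1*, at 5.4, 21.6 and 17.1 CPM against 20.6, 40.7 and 25.2 CPM, had overlapping groups (-0.82 ± 0.42, adjusted p = 0.23). *Insig1*, at 16.2, 12.3 and 24.3 CPM against 33.1, 39.4 and 19.4 CPM, overlapped as well (-0.69 ± 0.38, adjusted p = 0.26).

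**Figure D2:**
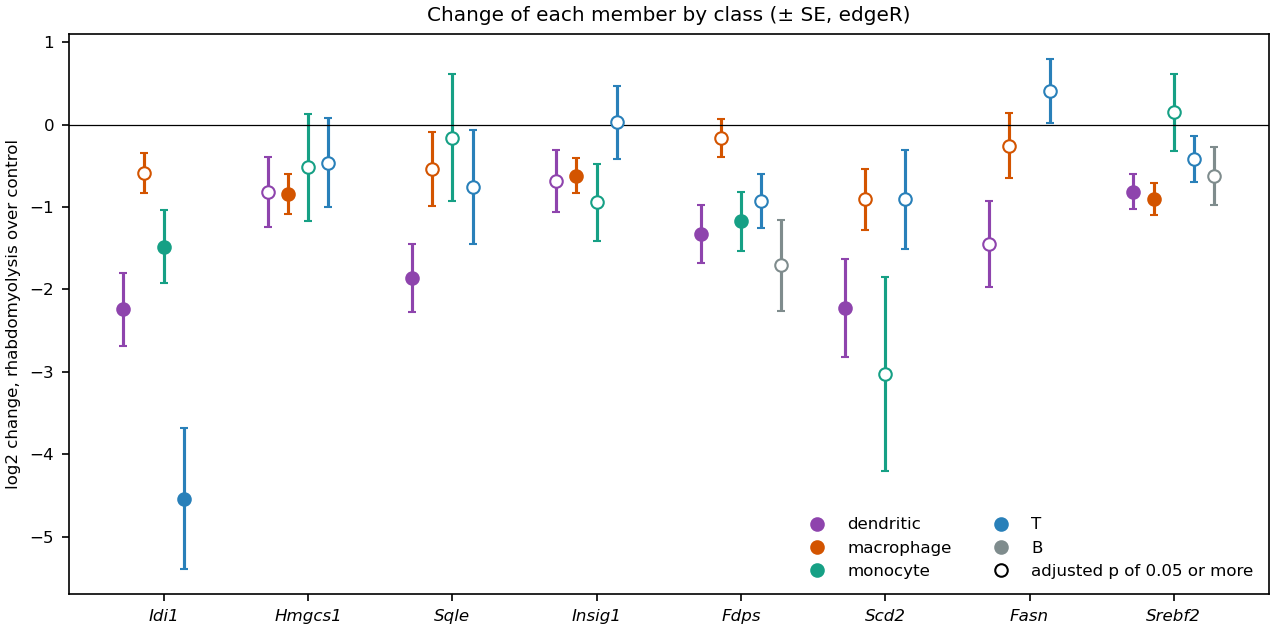
Change of each member (x axis) as log2 of rhabdomyolysis over control (y axis, ± SE from edgeR), with 1 color per class, filled where the adjusted p was under 0.05 and open elsewhere; pairs without enough counts are absent. The filled points all lie below zero, from -0.62 for *Insig1* in macrophages to -4.54 for *Idi1* in T cells.

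These dendritic calls depended on which cells were let through the gate. The gate planned for the class asked for 2 different marker genes, which left 10, 8 and 23 rhabdomyolysis cells against 86, 88 and 60 control cells, and 2 UMIs of any 1 of the 5 markers were accepted instead after the numbers of cells and the marker levels had been seen. With 3 UMIs over 2 marker genes and at least 10 cells per library, which left out rhabdomyolysis replicate 2, 0 of the 8 members were called by edgeR. Of these 8, 0 had an unadjusted p under 0.05, and DESeq2 was not run on these cells. With the same gate and no minimum of cells, 0 of the 6 members tested were called by edgeR. Of these 6, 3 had an unadjusted p under 0.05, and DESeq2 was again not run. *Idi1* then stood at -1.54 ± 0.62 (adjusted p = 0.17), *Sqle* at -1.32 ± 0.56 (0.20) and *Srebf2* at -0.73 ± 0.29 (0.17), and *Insig1* turned to 0.14 ± 0.49 (0.92). In the type 2 cells alone, with *Cd209a* and neither *Xcr1* nor *Clec9a* (17, 23 and 41 cells against 107, 113 and 72), 5 of the 6 members tested were called, *Idi1* at -2.31 ± 0.36 (adjusted p = 0.00087), *Sqle* at -3.41 ± 0.72 (0.0057), *Fdps* at -1.78 ± 0.36 (0.0046), *Srebf2* at -0.84 ± 0.24 (0.028) and *Insig1* at -1.64 ± 0.50 (0.039). Within these type 2 cells *Idi1* stood at 19.1, 7.3 and 11.3 against 50.5, 60.4 and 61.1 CPM of the sum over these cells, without TMM scaling. The type 2 cells were 17 of 20, 23 of 30 and 41 of 61 dendritic cells in the rhabdomyolysis libraries. In replicates 1 and 2 of these the macrophage lists exceeded the dendritic ones. The label rests on *Cd209a*, no check list was summed for these cells, and other cell types among them were not tested for. Type 1 cells alone could not be tested, with 1 rhabdomyolysis library of at least 10 such cells.

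**Figure D3:**
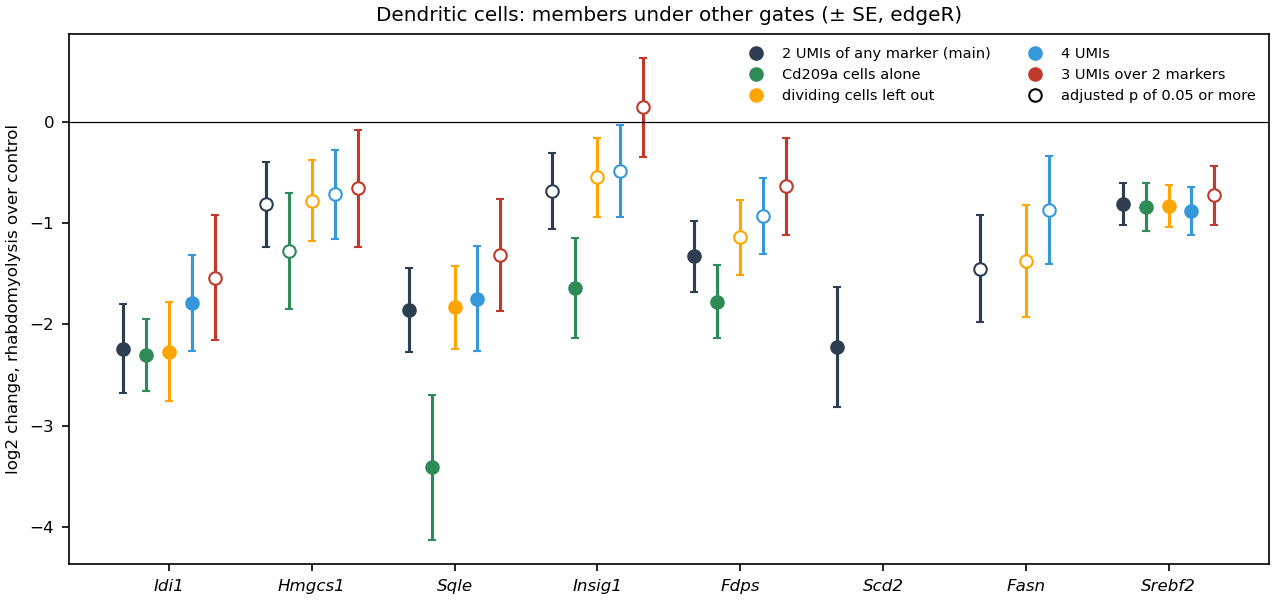
Change of each member in dendritic cells (log2, ± SE, y axis) under 5 selections of the cells, filled where the adjusted p was under 0.05; members without enough counts are absent. With 3 UMIs over 2 markers all points are open, and for *Cd209a* cells alone 5 of 6 are filled.

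Proliferation genes moved with the dendritic result, and their part in it was not tested beyond leaving out cells. All 8 tested of 12 proliferation genes fell in dendritic cells, with a median change of -3.53, and cells with at least 2 UMIs of that list without *Stmn1*, *Hmgb2* and *Tyms* numbered 0, 0 and 1 in rhabdomyolysis libraries and 15, 18 and 15 in control libraries. In the dividing control dendritic cells *Fdps* stood at 215, 197 and 106 CPM of their summed UMIs, without TMM scaling, against 75.8, 109 and 77.6 in the other control dendritic cells. *Idi1* did not show one direction there, at 48.4, 136 and 29.4 in dividing against 49.8, 69.7 and 134 in the other control cells. Without the dividing cells, *Idi1* had a change of -2.27, *Sqle* one of -1.83 and *Srebf2* one of -0.83, all 3 called, and *Fdps* gave -1.14 (adjusted p = 0.055). That narrower list was chosen after seeing the data. Cells with 2 UMIs of the full list made up 45.0%, 66.7% and 65.6% of the dendritic cells in rhabdomyolysis and 59.6%, 59.5% and 65.4% in control libraries. Without them 2 of 3 members tested were called, *Idi1* at -2.22 (adjusted p = 0.0051) and *Fdps* at -2.22 (0.018), and *Srebf2* gave -0.49 (0.31).

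In macrophages 3 of the 8 members fell, beside 21.6% of all 10082 tested genes called lower, a count that does not set the members apart from the class as a whole. It was 1 of 8 without control replicate 2 or rhabdomyolysis replicate 1. All 8 changes were below zero, with a median of -0.61 against -0.04 over all genes tested. For 5 of the 8 the groups did not overlap, the rhabdomyolysis libraries being lower, as for 29% of all genes tested. *Srebf2* stood at 21.1, 14.4 and 20.0 CPM in rhabdomyolysis and 32.3, 37.9 and 33.5 CPM in control libraries. The groups lay well apart, with a change of -0.90 ± 0.19 (adjusted p = 0.0055) that was called under every alternative run. *Hmgcs1* stood at 6.3, 6.8 and 9.4 CPM against 12.2, 16.2 and 12.3 CPM (-0.84 ± 0.24, adjusted p = 0.020), again without overlap. *Insig1* stood at 9.8, 15.8 and 12.3 CPM against 20.2, 20.8 and 17.3 CPM (-0.62 ± 0.21, adjusted p = 0.041). DESeq2 gave *Insig1* an adjusted p of 0.082, and leaving out any one library other than rhabdomyolysis replicate 2 took its call away, with adjusted p of 0.068 to 0.14; *Hmgcs1* lost its call without control replicate 2 (0.10) or rhabdomyolysis replicate 1 (0.070).

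The remaining macrophage members did not pass. *Idi1* stood at 11.0, 7.3 and 13.8 CPM against 14.7, 17.3 and 16.6 CPM, without overlap (-0.59 ± 0.24, adjusted p = 0.076). *Scd2* stood at 2.2, 4.3 and 2.2 CPM against 4.4, 7.3 and 4.8 CPM, also without overlap (-0.91 ± 0.37, adjusted p = 0.076). *Fdps*, at 33.7, 19.6 and 32.8 CPM against 33.2, 35.3 and 27.7 CPM, overlapped in part (-0.16 ± 0.23, adjusted p = 0.59). *Sqle* (-0.54 ± 0.45, 0.36) and *Fasn* (-0.26 ± 0.39, 0.63) were low in both groups, under 13 CPM in each library.

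The macrophage class also differed in kind between the groups. Its 8 check genes summed to 10499 to 20486 CPM in rhabdomyolysis and 25384 to 31450 CPM in control libraries, and the monocyte gating genes to 790 to 1362 against 260 to 358 CPM. The *Malat1* filter kept 444 of 864, 623 of 1043 and 474 of 2376 gated macrophages in rhabdomyolysis libraries. In control libraries it kept 1565 of 1922, 1318 of 1717 and 921 of 1445. Without the filter 3 of the 8 members were called. Median UMIs per macrophage were 5090 to 7400 in rhabdomyolysis and 3590 to 4148 in control libraries. An estimated 10% to 15% of the macrophage UMIs in rhabdomyolysis and 14% to 15% in control libraries were free RNA, RNA from broken cells caught in the droplets. In macrophages with a *Ccr2* UMI, *Srebf2* alone of the 3 kept its call; *Hmgcs1* gave -0.79 (adjusted p = 0.072) and *Insig1* -0.30 (0.40).

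In monocytes 2 of the 7 members tested fell, beside 4.9% of all 7757 genes called lower, and 1 of 8 without control replicate 2 or 1 of 5 without rhabdomyolysis replicate 3. For 3 of the 7 the rhabdomyolysis libraries lay below both control libraries without overlap, as for 21.8% of all genes. *Idi1* stood at 13.9, 23.6 and 18.1 CPM in rhabdomyolysis and 66.3 and 37.6 CPM in the 2 control libraries (-1.48 ± 0.45, adjusted p = 0.044). *Fdps* stood at 40.3, 49.0 and 62.7 CPM against 166 and 62.6 CPM. Control replicate 2 lay within the rhabdomyolysis range, and the change was -1.17 ± 0.36 (adjusted p = 0.047). The control values rest on 12 and 6 UMIs of *Idi1* and 30 and 10 UMIs of *Fdps*. Without control replicate 1, which leaves 1 control library assumed to vary like the others, the change of *Fdps* was -0.17 (adjusted p = 0.89) and that of *Idi1* -0.88 (0.50); without rhabdomyolysis replicate 1 they were -1.05 (0.15) and -1.34 (0.11), so that edgeR called 0 of 7 members either way, with 0 and 3 of them at an unadjusted p under 0.05.

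Markers of other cell types differed between the monocyte groups as well. The neutrophil check list summed to 1578, 1441 and 742 CPM in rhabdomyolysis and 83.2 and 45.6 CPM in the 2 control libraries tested, and hemoglobin and *Alas2* RNA to 573, 11.3 and 1414 against 0 and 0 CPM. The macrophage check list stood at 10175, 8671 and 6590 against 6943 and 8590 CPM and the monocyte check list at 2788, 2968 and 2592 against 1920 and 2051 CPM. Classical cells, with *Ly6c2*, *Chil3* or *Vcan* and neither *Ace* nor *Treml4*, numbered 111, 154 and 184 of 174, 231 and 365 rhabdomyolysis monocytes. In the control libraries they numbered 4 of 27 and 5 of 24. Cells with no *Arg1* or *Spp1* UMI numbered 94, 144 and 204 in rhabdomyolysis and 27 and 24, all of the monocytes, in control libraries. Among such cells 2 of the 4 members tested were called. The part of these differences in the falls was not tested otherwise.

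*Insig1* in monocytes stood at 22.0, 27.2 and 15.8 CPM against 38.7 and 43.8 CPM, without overlap, and did not pass (-0.94 ± 0.47, adjusted p = 0.22). *Scd2* had the largest fitted change, -3.02 ± 1.17 (adjusted p = 0.12), from 0, 1 and 15 UMIs in rhabdomyolysis and 4 and 2 UMIs in control libraries. *Srebf2* was close to level, at 24.9, 33.1 and 37.6 CPM against 33.1 and 25.0 CPM (0.15 ± 0.46, adjusted p = 0.89). *Hmgcs1* (-0.52 ± 0.65, 0.68) and *Sqle* (-0.16 ± 0.77, 0.93) did not pass, and *Fasn*, with 20 against 2 UMIs, was not tested.

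In T cells *Idi1* was the only member called, beside 4.18% of all 7815 genes called lower. For 3 of the 8 members tested the rhabdomyolysis libraries lay below the control libraries without overlap, as for 15.8% of all genes. *Idi1* had 1 UMI in the 281 rhabdomyolysis T cells, in replicate 1, and 83, 59 and 42 UMIs in the control libraries, or 5.2, 0 and 0 against 32.6, 29.4 and 19.6 CPM. The pooled rate in rhabdomyolysis was 0.039 of that in control T cells, with an exact 95% interval of 0.00099 to 0.22 that covers counting error only. The fitted change was -4.54 ± 0.85 (adjusted p = 0.0021), a value that depends on the prior count. Without control replicate 1 or 2 *Idi1* fell under the filter on low counts and was not tested. Median UMIs per T cell were 2255 to 3368 in rhabdomyolysis and 3635 to 3760 in control libraries. The T gating genes summed to 4218, 2594 and 4019 CPM in rhabdomyolysis and 7253, 6992 and 6562 CPM in control T cells, and the T check list to 2144 to 2516 against 2151 to 2369 CPM. Cells with 2 or more proliferation UMIs made up 30.7%, 42.0% and 32.2% of the T cells against 64.9%, 61.5% and 63.3%. Without these cells *Idi1* had too few counts to be tested, and 0 of 3 members were called by edgeR, 1 of them with an unadjusted p under 0.05. *Idi1* then stood at 7.7, 0 and 0 against 37.4, 32.2 and 17.1 CPM of the summed UMIs, without TMM scaling. On the narrower list, without *Stmn1*, *Hmgb2* and *Tyms*, the shares of T cells were 1.3%, 0% and 4.2% against 2.6%, 1.4% and 4.6%. With the cells of that list left out, *Idi1* was still called, the 1 of 8 members tested. Split by lineage, *Idi1* had 0 UMIs in the 32 *Cd4* and 91 *Cd8* cells of the rhabdomyolysis libraries, against 18, 4 and 12 UMIs in *Cd4* and 13, 11 and 3 UMIs in *Cd8* cells of the control libraries, too few to be tested.

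The other T cell members did not pass. *Fdps* stood at 15.6, 10.5 and 42.8 CPM against 50.7, 51.9 and 51.2 CPM, without overlap (-0.93 ± 0.33, adjusted p = 0.086), and was called with library totals in place of TMM (-1.11, 0.035), without the filter on low counts (-1.03, 0.011) and without rhabdomyolysis replicate 3 (-2.03, 0.0048). *Srebf2* stood at 26.0, 35.1 and 36.0 CPM against 37.7, 52.8 and 45.2 CPM, also without overlap (-0.42 ± 0.28, adjusted p = 0.41). *Insig1* (0.03 ± 0.44, 0.99) and *Fasn* (0.40 ± 0.39, 0.61) were the members with a change above zero; with library totals *Insig1* turned to -0.15. *Hmgcs1*, *Sqle* and *Scd2* had overlapping groups and adjusted p of 0.41 to 0.68.

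B cells gave few counts, with 211 rhabdomyolysis and 899 control cells. *Fdps* and *Srebf2* alone were tested, and 0 of the 2 were called by edgeR, beside 2.57% of all 4897 genes called lower; 1 of the 2 was under an unadjusted p of 0.05, and DESeq2 called 0 of the 1 to which it gave an adjusted p. *Fdps* stood at 0, 10.6 and 14.4 CPM against 36.7, 34.1 and 34.7 CPM, without overlap (-1.70 ± 0.55, unadjusted p = 0.0046, adjusted p = 0.074). *Srebf2* stood at 14.1, 53.2 and 33.7 CPM against 57.0, 57.2 and 65.3 CPM, also without overlap (-0.62 ± 0.35, adjusted p = 0.37). Over all genes tested in B cells, 12.3% had every rhabdomyolysis library below every control library. *Idi1* had 1 UMI in the rhabdomyolysis and 50 in the control B cells, a pooled ratio of 0.12 with an exact 95% interval of 0.0029 to 0.69. *Sqle* had 0 against 14 UMIs, a difference that was not detectable at this depth, since 3 UMIs in the rhabdomyolysis sums would lie above the control rate. *Insig1* had 2 against 31 UMIs (ratio 0.38, interval 0.044 to 1.5), and *Hmgcs1*, *Scd2* and *Fasn* had 5 to 8 against 33 to 38 UMIs.

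The change differed between the classes for 2 of the 8 members. In an overall edgeR test of the class by group interaction, with the library as a block, 30.4% of all 10483 genes were called, and *Idi1* (adjusted p = 0.011) and *Fdps* (0.017) were among them. The other 6 had adjusted p of 0.14 for *Scd2* to 0.87 for *Hmgcs1*. Of the 10 pairs of classes, *Idi1* differed between dendritic cells and macrophages, by -1.73 ± 0.52 (adjusted p = 0.019), where 15.9% of all genes were called, and between macrophages and T cells, by 4.09 ± 1.20 (0.011), where 22.4% were. *Fdps* differed between dendritic cells and macrophages, by -1.32 ± 0.36 (adjusted p = 0.0081), and in no other pair. In the other 8 pairs, with 1.55% to 16.6% of all genes called, no member passed. With free RNA removed the overall adjusted p of *Fdps* was 0.054 and with RLE scaling, the method of DESeq2, 0.059. Without rhabdomyolysis replicate 3 the overall adjusted p of *Idi1* was 0.11, and without rhabdomyolysis replicate 1 that of *Fdps* was 0.19. The test between classes was not run with 2 marker genes required, with stricter gates or in the type 2 cells alone. Whether these differences depend on the dendritic gate was therefore not tested.

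Across classes, the order of levels, scaled within each class, depended on the gene. *Idi1* averaged 15.1, 10.7, 18.5, 1.7 and 1.6 CPM in rhabdomyolysis dendritic cells, macrophages, monocytes, T cells and B cells, and 83.4, 16.2, 51.9, 27.2 and 16.2 CPM in the control classes in that order. *Fdps* averaged 30.1, 28.7, 50.7, 23.0 and 8.4 CPM in the rhabdomyolysis classes against 101, 32.1, 114, 51.2 and 35.1 CPM in the control ones. *Srebf2* averaged 45.3, 18.5, 31.9, 32.3 and 33.7 CPM against 79.2, 34.6, 29.1, 45.2 and 59.9 CPM. In control libraries, all members except *Insig1* had every dendritic value above every macrophage value, whereas *Idi1* and *Fdps* of dendritic cells and monocytes overlapped. In rhabdomyolysis libraries the dendritic and macrophage ranges of *Idi1*, *Fdps* and *Sqle* overlapped, and those of *Srebf2* did not.

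The 8 members were not all alike across the 29 class and library sums. *Idi1* and *Fdps* (Pearson r of log2 CPM = 0.81), *Sqle* and *Fdps* (0.81) and *Idi1* and *Sqle* (0.81) were the most alike, and *Insig1* and *Fasn* (-0.17) the least. The 10 genes whose log2 CPM was most like the mean z score of the members, among 3274 genes ranked, included *Lsp1* (0.81), *Nsa2* (0.80), *B230219D22Rik* (0.78), *Dock10*, *Tmpo*, *Cct4*, *Asap1*, *Hnrnpc* and *Ctnna1* (0.69). The sums share libraries, and depth differs between classes, so these correlations are a description.

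Beyond the members, the lists of the surrounding pathway moved unevenly. Of the 22 cholesterol synthesis genes, 6 of 13 tested fell and 0 rose in dendritic cells, with a median of -0.96. Among them, besides the members, were *Cyp51*, the lanosterol demethylase, at 21.6, 9.2 and 14.3 CPM against 42.4, 62.0 and 40.7 CPM (-1.79 ± 0.35, adjusted p = 0.0035), and *Lbr*, a sterol reductase that is also the lamin B receptor (-1.62 ± 0.35, 0.0058). In macrophages 3 of 20 tested fell and 3 rose. In monocytes 2 of 15 fell and in T cells 1 of 18, each of these a member, and none rose. In B cells 0 of 7 were called by edgeR, 2 of them with an unadjusted p under 0.05, and DESeq2 called 0 pathway genes there. Over all genes tested, 8.39% were called higher in dendritic cells, 21.6% in macrophages, 6.28% in monocytes, 6.47% in T cells and 2.29% in B cells. The dendritic calls of the pathway lists, members included, depended on the gate. Over all these lists 11 of 35 genes tested were called in dendritic cells, 10 of them falls. With 2 marker genes required, which kept fewer cells, 1 of 38 was called, a fall. With 2 marker genes and no minimum of cells, 0 of 25 were called by edgeR. In the type 2 cells alone 11 of 24 were called, 9 of them falls.

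In macrophages the called genes of cholesterol synthesis, 3 of 20 in each direction, were beside 21.6% of all genes in each direction, which does not set the list apart. Over the 4 pathway lists 9 rose and 11 fell there, against 6 and 14 with library totals and 7 and 13 with the replicate block. *Cyp51* fell to 9.8, 7.3 and 14.7 CPM in rhabdomyolysis, against 18.6, 21.0 and 21.2 CPM in control libraries (-0.92 ± 0.25, adjusted p = 0.016), and *Lbr* fell by 0.74 ± 0.22 on the log2 scale (0.022). *Pmvk*, phosphomevalonate kinase, rose to 71.8, 311 and 34.3 CPM against 15.7, 18.8 and 19.3 CPM (2.96 ± 0.69, adjusted p = 0.0082), with replicate 2, the library with high hemoglobin RNA in dendritic cells and macrophages, far above the rest. *Mvd*, the mevalonate diphosphate decarboxylase (1.13 ± 0.30, 0.014), and *Hsd17b7* (1.32 ± 0.43, 0.035) rose from low levels, under 10 CPM on average in both groups.

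Among the 18 fatty acid synthesis genes, *Scd2* was the 1 of 7 tested that was called in dendritic cells, a fall. In macrophages 3 of 11 tested rose and 1 fell, beside 21.6% of all genes in each direction. There *Elovl1* (0.43 ± 0.14, adjusted p = 0.035), *Hsd17b12* (0.66 ± 0.18, 0.015) and *Fads1* (0.47 ± 0.17, 0.0498) rose, and *Acsl3*, an acyl-CoA synthetase of lipid droplets, fell to 10.1, 10.3 and 10.4 CPM against 39.9, 53.0 and 37.1 CPM (-2.08 ± 0.20, 0.00013). *Acss2*, which makes acetyl-CoA from acetate, fell in monocytes (-3.12 ± 0.80, adjusted p = 0.019), a call that rests on 2 control libraries of 27 and 24 cells. *Scd1*, a desaturase related to *Scd2*, rose in B cells to 225, 256 and 197 CPM against 137, 124 and 160 CPM (0.69 ± 0.20, 0.038). It was the 1 pathway gene called in B cells. No pathway gene was called there with library totals, DESeq2, no filter on low counts or stricter gates, or without any 1 library other than rhabdomyolysis replicate 3. In B cells *Scd2* stood at 0, 31.9 and 9.6 CPM against 11.7, 12.3 and 12.0 CPM and was not tested.

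Of the 12 SREBP control genes, *Trib1*, a pseudokinase known to restrain lipid synthesis in liver, rose in 3 classes. Of the list, 1 of 12 tested in macrophages rose and 3 fell, 1 of 9 in dendritic cells rose and 1 fell, and 1 of 10 in T cells rose. The shares of all genes were 21.6% in each direction in macrophages, 8.39% higher and 7.22% lower in dendritic cells, and 6.47% higher in T cells. In macrophages *Trib1* stood at 204, 134 and 181 CPM against 56.5, 66.8 and 61.9 CPM (1.49 ± 0.19, adjusted p = 0.00045). It rose by 0.99 ± 0.16 in dendritic cells (0.00083) and by 1.73 ± 0.40 in T cells (0.0092). With 2 marker genes required, no gene of the 4 pathway lists was called higher in dendritic cells, and 1 of 38 tested was called lower. In T cells none was called higher without rhabdomyolysis replicate 2 or without cells of 2 or more proliferation UMIs. *Mbtps1*, the protease that makes the first cut in SREBP precursors, fell in macrophages (-0.96 ± 0.21, adjusted p = 0.0062). Of the 12 uptake and transport genes, 2 of 11 tested rose and 4 fell in macrophages, beside 21.6% of all genes in each direction, and 2 of 6 fell in dendritic cells, beside 7.22%. *Lipa*, the lysosomal lipase that frees cholesterol from lipoprotein esters, fell in macrophages (-1.25 ± 0.29, adjusted p = 0.0076) and dendritic cells (-1.05 ± 0.28, 0.020). In macrophages *Npc1* (-0.79 ± 0.26, adjusted p = 0.033), *Mylip* (-0.69 ± 0.24, 0.039) and *Stard4* (-1.09 ± 0.35, 0.033) fell as well, and *Nr1h3*, the liver X receptor alpha (2.51 ± 0.43, 0.0020), and *Tmem97* (0.68 ± 0.20, 0.022) rose. *Abcg1*, a cholesterol exporter, fell in dendritic cells (-0.98 ± 0.30, adjusted p = 0.040).

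**Figure D4:**
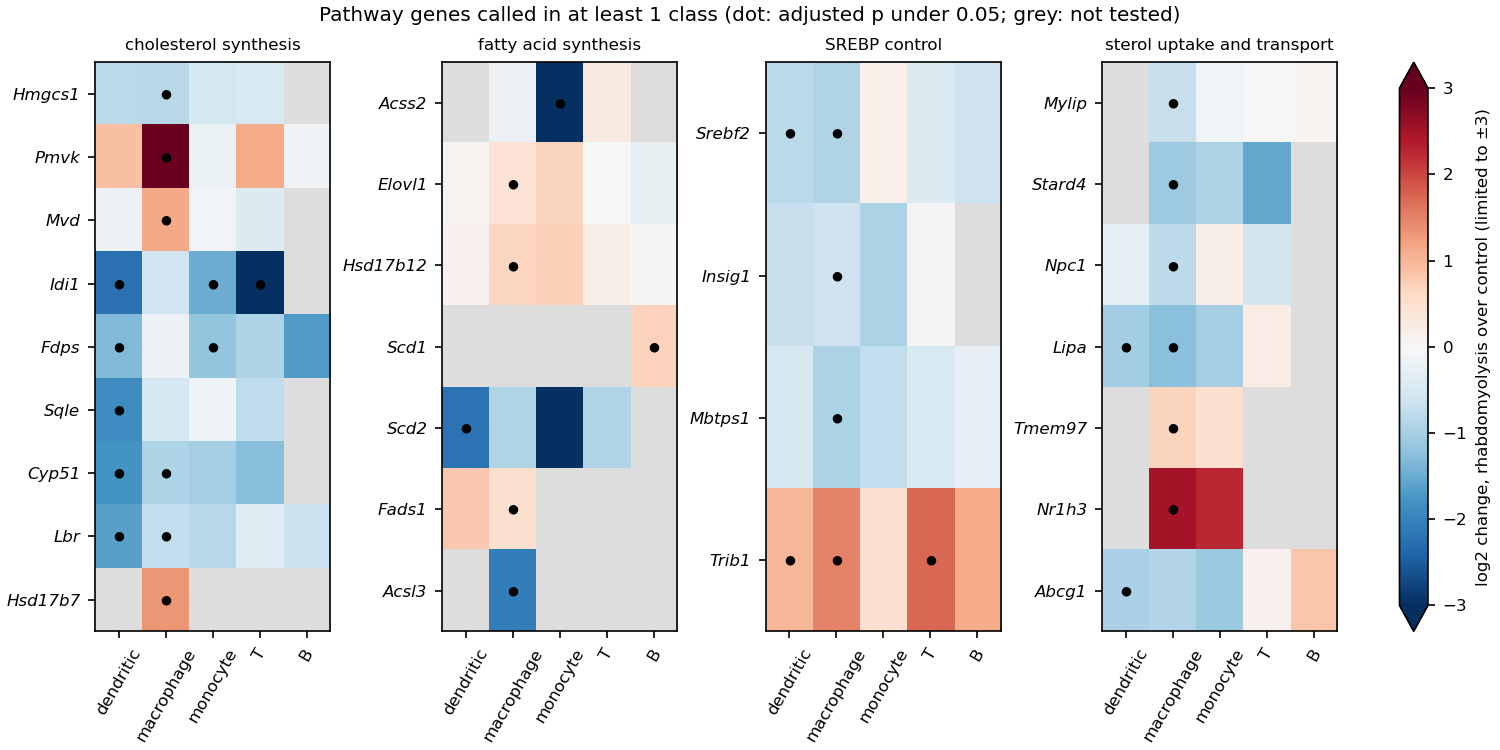
Change of the reported genes of 4 lists that were called in at least 1 class (rows) in each class (columns) as log2 of rhabdomyolysis over control, in color from blue (lower) to red (higher) and limited to 3 in either direction; a dot marks an adjusted p under 0.05 and grey a gene without enough counts. The rows were chosen for being called. In the dendritic column of cholesterol synthesis every dot is on blue, and in the macrophage column 3 dots are on blue and 3 on red.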

How the data were processed

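Single-cell 3′ RNA sequencing of CD45-sorted kidney cells was analysed in 3 rhabdomyolysis and 3 control libraries. The deposited values are raw UMI counts per gene and barcode, unfiltered for cells, written by Cell Ranger 4 per the file headers, on the genome build mm10 per the submitters' processing notes. The 6 antibody tags were not used. How reads shared between related genes (*Idi1* and *Idi2*, or *Fdps* and its pseudogenes) were counted is not given in the sources used here.

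Barcodes were called cells with at least 500 UMIs, 200 genes and no more than 15% of UMIs from mitochondrial genes, if 10000 multinomial draws from free RNA (barcodes of 100 or fewer UMIs) gave an adjusted p of at most 0.001. Barcodes with *Malat1* under 0.1% of UMIs were left out. Between 0 and 6 called barcodes were shared by any pair of libraries. No doublet caller was run; barcodes passing more than 1 gate were removed, which leaves doublets of 1 class.

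Gates on raw UMIs were, for dendritic cells, 2 UMIs of *Flt3*, *Zbtb46*, *Xcr1*, *Clec9a* and *Cd209a*; for macrophages, 10 UMIs of *C1qa*, *C1qb* and *C1qc*, with all 3 genes and 0.5% of UMIs; for T and B cells, 3 UMIs over 2 genes; and for monocytes, 5 UMIs over 2 genes with no other gate passed. NK, plasmacytoid dendritic, endothelial and tubule cells (3 UMIs) and neutrophils and group 2 innate lymphoid cells (5 UMIs) were set aside. Thresholds were chosen from marker UMIs after the data were seen, without the members' values. The plan asked for 2 different marker genes in each gate; this was dropped for dendritic cells, and the exclusions used any gene of their list.

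Sums per class and library were tested with edgeR 4.0.16 in R 4.3.3 (quasi-likelihood test, TMM, default expression filter, adjustment over all genes); DESeq2 1.42.0 was an alternative. The members and lists were chosen with earlier results of these data known. Named were all 8 members, up to 8 called pathway genes per class with an average log2 CPM of at least 4, by size of change, and the 10 genes most like the members; pathway genes named outside this rule were chosen after their values were seen, and some genes of these lists are not reported here. The steps were tested on simulated data. Deviations of same-numbered libraries had r of 0.23, 0.34 and 0.12 in macrophages and of -0.01 to 0.12 in the other classes. Libraries with different numbers gave r of -0.34 to 0.11 in macrophages and of -0.11 to 0.08 in the other classes. The labels do not say that a number marks a shared batch. Intervals and floors cover counting error only.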

Additional observations from a re-analysis of the deposited data

Results flagged for a closer look

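The change of *Idi1* differed between the 5 classes in the overall interaction test of edgeR (adjusted p = 0.0107). It fell by 2.24 ± 0.44 on the log2 scale in dendritic cells, by 1.48 ± 0.45 in monocytes and by 4.54 ± 0.85 in T cells, and had a change of -0.59 ± 0.24 in macrophages, which was not called. In each of these classes all rhabdomyolysis libraries lay below all control libraries. The change of *Fdps* differed as well (adjusted p = 0.0175), with -1.33 ± 0.35 in dendritic cells and -1.17 ± 0.36 in monocytes, both called, and -0.16 ± 0.23 in macrophages. The test between classes was not run under the other dendritic gates. Free RNA made up an estimated 11.9%, 19.0% and 13.8% of the macrophage *Fdps* counts in rhabdomyolysis libraries and 19.9%, 17.7% and 22.2% in control libraries, and its part in the difference between classes was not tested beyond its removal, after which the adjusted p was 0.054 for *Fdps* and 0.024 for *Idi1*.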

How the results depend on the processing

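Of the 590 values of single members under the alternatives, the direction turned in 24, none of them called on either side. *Srebf2* in macrophages was called under all 21 alternatives run, and *Idi1* in dendritic cells under 19 of 21, the exceptions being the gates with 2 marker genes. *Idi1* in T cells was called under all 15 in which it was tested. With 1 UMI in rhabdomyolysis, it passed the filter on low counts through the control libraries, so these 15 are not an independent check. It was not tested without control replicate 1 or 2, without cells of 2 or more proliferation UMIs, or in *Cd4* or *Cd8* cells alone. Leaving out 1 library gave 2 to 5 called members in dendritic cells, 1 to 4 in macrophages, 0 to 3 in monocytes, 0 to 2 in T cells and 0 to 0 in B cells, beside 573 to 992 called genes in dendritic cells, 2776 to 5952 in macrophages, 248 to 1088 in monocytes, 549 to 829 in T cells and 84 to 381 in B cells. Pathway genes called over the 5 classes numbered 38 and, with 1 library left out, 15 to 43. The genes whose change differed between classes numbered 3190 and stayed within 1.5 times that under every alternative run. With 1 library left out, 7 to 8 members were tested in dendritic cells, 8 in macrophages and 5 to 8 in monocytes. In T cells 2 to 8 were tested and in B cells 1 to 6, so a lower count there can reflect fewer members tested.

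In dendritic cells, 0 of the 8 members tested were called by edgeR (257 genes in all) with 2 marker genes required. With these and no minimum of cells it was 0 of 6 (277 genes). Without cells of 2 or more proliferation UMIs it was 2 of 3 (474 genes), and with stricter gates 3 of 7 (611 genes). It was 2 of 4 without the top 5% of UMIs and 3 of 7 with the narrower proliferation list. In monocytes 0 of 7 members tested were called with stricter gates or without the top 5% of UMIs. It was 1 of 7 without the *Malat1* filter, 1 of 7 with free RNA removed and 2 of 4 (406 genes) in cells with no *Arg1* or *Spp1* UMI. In T cells 2 of 8 members tested were called with library totals and 2 of 8 without the filter on low counts. It was 0 of 3 without proliferating cells (444 genes), 0 of 2 in *Cd4* cells alone (102 genes) and 0 of 1 in *Cd8* cells alone (313 genes). The replicate block changed no count of called members (5 in dendritic cells, 3 in macrophages, 2 in monocytes, 1 in T cells, 0 in B cells); *Idi1* in monocytes lost its call under it (adjusted p = 0.071) and *Scd2* gained one (0.024). Library totals moved the median of all genes by -0.18 in T cells and -0.16 in monocytes on the log2 scale.

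Turned directions were, for *Srebf2* in monocytes, -0.016 with library totals, -0.022 with the replicate block, -0.0047 without the top 5%, -0.50 with the narrower list, -0.67 without *Arg1* or *Spp1* and -0.57 with no minimum of cells. *Sqle* in monocytes gave 0.0094 without the filter. *Insig1* in T cells gave -0.15 with library totals, -0.067 without the filter, -0.046 without the top 5%, -0.065 with stricter gates, -0.60 without proliferating cells and -0.014 with the narrower list; *Insig1* in dendritic cells 0.35 and 0.14 with 2 marker genes. *Fasn* in macrophages gave 0.25 without the *Malat1* filter and *Fdps* 0.11 in *Ccr2* cells. With 1 library left out, the ranges were -0.85 to 0.079 for *Fasn* in macrophages, -0.28 to 0.11 for *Fdps* in macrophages, -1.02 to 0.17 for *Hmgcs1* in T cells, -1.16 to 1.47 for *Hmgcs1* in monocytes, -0.43 to 0.37 for *Insig1* in T cells, -0.57 to 0.85 for *Sqle* in monocytes and -0.0084 to 0.48 for *Srebf2* in monocytes. The causes were not tested. The minimum of 20 cells was 10 where a subset of cells was kept. This minimum, the narrower list, the gates with 2 marker genes, the settings of the test between classes and the monocytes with no minimum were chosen after seeing the data. Not run were monocytes without proliferating cells, classical monocytes alone and type 1 dendritic cells alone, for want of cells. The *Cd4*, *Cd8* and B cell tests are limited by depth.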
